A study of Homo sapiens with 8 samples.

Results

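The regions described here are 508 places in the genome of Nalm6 cells where the transcription factor ATF4 was already detected without treatment and where its peak was at least 2 times as strong after L-asparaginase. They were chosen from the deposited peak lists of 4 Nalm6 libraries. Peaks sharing at least 1 bp were merged, which gave 57175 regions, and 25213 of these held a peak in all 4 lists. For each list the highest fold enrichment in the region was taken, and a region was kept when the lower of both asparaginase values was at least 2 times the higher of both untreated values. The values that chose the regions are therefore the Nalm6 enrichments themselves, and everything said about Nalm6 peak strength below is a description without a test. The 508 regions make up 2.01% of the 25213, and the mirrored rule, with asparaginase and untreated exchanged, was met by 0 regions. After division of each list by its median enrichment the rule was met by 190 regions and the mirrored rule by 5.

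ATF4 belongs to the transcription factors that carry out the integrated stress response. When amino acids run short, general protein synthesis is slowed while translation of the ATF4 messenger RNA increases, and the protein then activates genes for amino acid synthesis, amino acid transport and stress adaptation, often as a dimer with proteins of the C/EBP family. L-asparaginase is an enzyme used as a drug against acute lymphoblastic leukaemia. It removes asparagine from the blood or culture medium, and leukaemic blasts with little asparagine synthetase depend on that external supply.

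The study asked where ATF4 sits on chromatin with and without this drug. Chromatin was immunoprecipitated with a rabbit monoclonal ATF4 antibody, 5 ug per sample, and sequenced. The groups were Nalm6 with L-asparaginase (LASP), Nalm6 not treated (NT), SUPB15 with L-asparaginase and SUPB15 not treated, with 2 libraries each. Treatment was 1 IU/ml for 2 h, and both acute lymphoblastic leukaemia cell lines grew in RPMI-1640 medium with serum and added glutamine. The series' design text describes independent experiments for Nalm6. For SUPB15 nothing says that the 2 libraries of a group came from separate cultures, so p-values there measure only the spread between these samples, which may be technical.

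The Nalm6 lists held 43376 and 48984 peaks with asparaginase and 34825 and 36801 without. The SUPB15 lists were far less even, with 88302 and 41213 peaks with asparaginase against 9575 and 9586 without. Relative depth, read from the genome background of each list in fragments per position, was 2.21 and 2.33 for the asparaginase libraries of Nalm6 against 2.97 and 2.79 for its untreated libraries, and for SUPB15 4.19 and 3.93 with asparaginase against 4.08 and 3.90 without. A region without a listed peak has no measured level, since the lists hold only peaks above the calling threshold. Positions are in the hg19 build. No genome or annotation of that build was used here, so the regions are given by position, without gene names or sequence.

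At the 508 strengthened regions of Nalm6, fold enrichment over local background, the value of the authors' peak caller, had a median of 11.4 in asparaginase replicate 1 and 11.7 in replicate 2, against 4.32 in untreated replicate 1 and 4.54 in replicate 2. It ranged from 6.18 to 22.8 and from 6.03 to 22.8 in the asparaginase libraries, and from 2.25 to 7.81 and from 2.69 to 8.69 in the untreated ones. The other 24705 regions had medians of 5.84 and 6.03 with asparaginase and 5.13 and 5.35 without treatment. The strengthened regions were thus above the other regions with asparaginase and below them without it, which follows in part from the rule. The ratio of the lower asparaginase to the higher untreated value ran from 2.00 to 3.73 among the strengthened regions, with a median of 2.21, and 13 regions reached a ratio of 3.

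**Figure D1:**
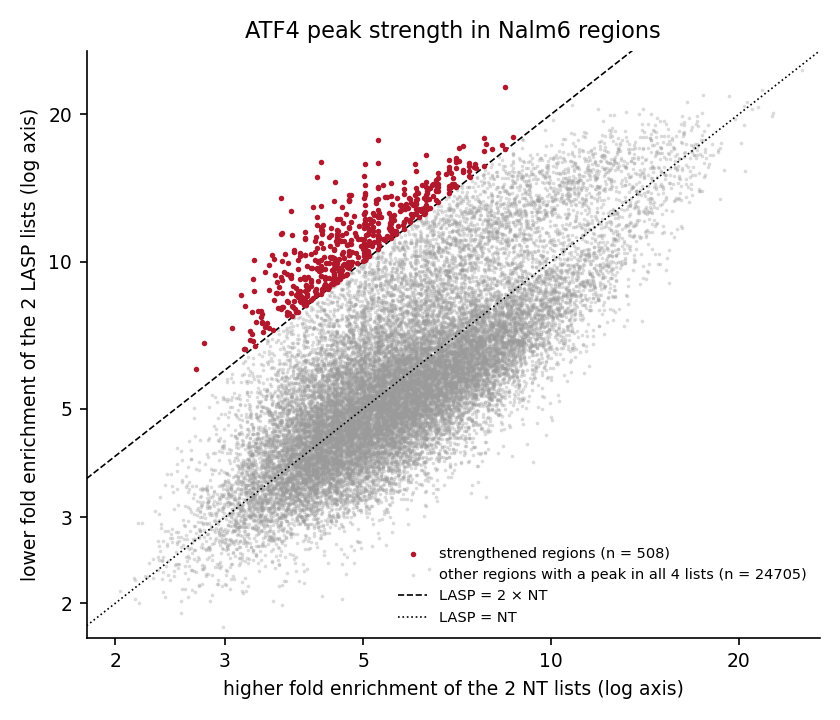
Each point is a Nalm6 region with a peak in all 4 lists; the x axis gives the higher fold enrichment of both untreated (NT) lists and the y axis the lower one of both asparaginase (LASP) lists, on log axes. The 508 strengthened regions (red) lie on or above the dashed line, where the asparaginase value is 2 times the untreated one, and none of them has an untreated value above 8.69, while the 24705 other regions (grey) reach 25.3.

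Fragment numbers at the summits showed the same regions on another scale. The summit pileup had a median of 67 and 77 fragments with asparaginase and of 20 and 21 fragments without, and the highest pileup at any strengthened region was 271 with asparaginase and 78 without, well under the highest values of 394 to 400 in the Nalm6 lists. Divided by the genome background of the library, to put depth on 1 scale, the medians were 30.8 and 33.5 with asparaginase and 7.07 and 7.89 without. On that scale the lower asparaginase value was 2.15 to 8.20 times the higher untreated value, with a median of 3.65. All 508 regions kept a ratio of at least 2, as did 3096 of the other regions (12.5%), so that 3604 regions, 14.3% of the 25213, met the rule by pileup. The local background, by which the peak caller's fold is divided, was higher with asparaginase too. This background appears to include the peak itself, so it is not independent of peak strength. At the strengthened regions its median was 2.21 and 2.35 times the genome background with asparaginase, against 1.14 and 1.19 times without, and it was higher in both asparaginase lists than in both untreated lists at 503 of the 508, against 56.6% of the other regions.

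The count of 508 rests on every one of the 4 libraries. With only 3 libraries in the rule it became 827 without asparaginase replicate 1, 647 without asparaginase replicate 2, 918 without untreated replicate 1 and 1266 without untreated replicate 2, as a rule on fewer values is easier to meet. Replicates lay close together at these regions. The ratio of asparaginase replicate 1 to replicate 2 had a median of 0.977 and a range of 0.734 to 1.30, and that of untreated replicate 1 to replicate 2 had a median of 0.963 and a range of 0.545 to 1.68. At 0 of the 508 regions did replicates of a group differ 2-fold. Among the other regions 7 did so with asparaginase and 15 without.

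**Figure D2:**
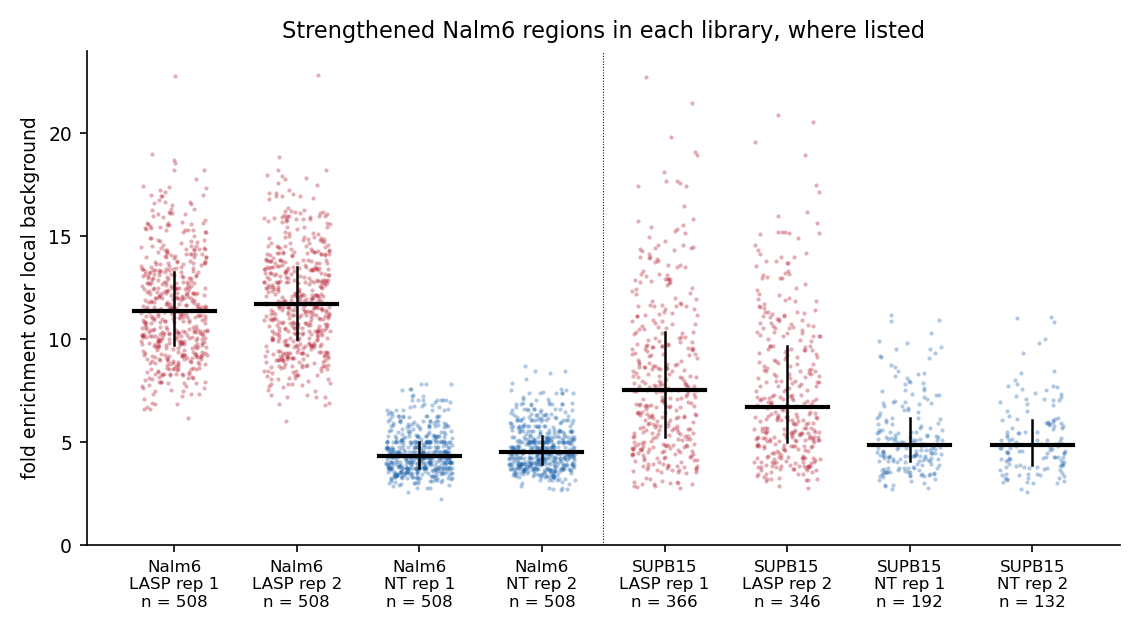
Fold enrichment over local background of the 508 strengthened Nalm6 regions in each of the 8 libraries, asparaginase (LASP, red) left of untreated (NT, blue) within each cell line; thick bars are medians, thin vertical bars run between the quartiles, and n is the number of regions with a listed peak. In SUPB15, where libraries had no part in the choice, 366 and 346 regions were listed with asparaginase and 192 and 132 without, and the values of the 2 treatments overlapped.

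The highest ratio, 3.73, was found at chrX:100897001-100897702. Fold enrichment there was 18.6 and 16.0 with asparaginase and 4.28 and 3.96 without, from summit pileups of 81 and 83 fragments against 16 and 14. The next region, at chr17:60900681-60901259, had 13.7 and 13.5 with asparaginase against 3.53 and 3.69, a ratio of 3.65. The rule requires both untreated libraries to lie below both asparaginase libraries. Replicates nearly coincided at the region on chromosome 17, while the asparaginase replicates at the region on chromosome X differed more (18.6 and 16.0). At chr1:244387694-244388233 the enrichments were 14.9 and 16.4 with asparaginase and 3.78 and 4.22 without, a ratio of 3.53. At chr3:57703635-57704487 they were 18.2 and 17.8 against 5.29 and 4.49, a ratio of 3.36. This last region had the highest ratio of pileups, 8.20, with 127 and 139 fragments in the asparaginase libraries and 20 and 16 in the untreated ones.

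The other 6 of the 10 regions with the highest ratios had ratios of 3.08 to 3.31. They lay at chr19:4953614-4954323, chr10:4449804-4450529, chr12:132345181-132345832, chr22:46964194-46964948, chr17:75467330-75468352 and chr12:50226514-50227179. Their untreated enrichments were all weak, from 3.33 to 5.04, and their asparaginase enrichments ran from 11.4 to 17.8.

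Ranked by strength with asparaginase instead of by ratio, a partly different set came first. The strongest region was at chrX:48257229-48257688, with fold enrichments of 22.8 and 22.8 with asparaginase and 7.05 and 8.45 without. At chr17:62038577-62039318 they were 19.0 and 17.9 against 6.55 and 8.69, and at chr19:54296239-54296726 they were 18.7 and 17.9 against 7.81 and 6.60. These regions already carried clear peaks without the drug, and their ratios were 2.69, 2.07 and 2.29. The region on chromosome 3 from 57703635 was the only one in both sets of 10. The others were at chr3:28349316-28350215, chr1:106564824-106565760, chr3:156943831-156944510, chr16:15684517-15685183, chr10:75973059-75973779 and chr11:28165927-28166842. Their asparaginase enrichments were 17.0 to 18.2 and their untreated enrichments 5.94 to 8.44.

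The threshold cuts through a continuous range. Between ratios of 1.9 and 2.0 there were 175 regions, and between 2.0 and 2.1 there were 148. Just inside was a region at chr13:97423795-97424682, with 13.8 and 12.5 with asparaginase against 4.78 and 6.25, followed by chr2:66463156-66463842 and chr5:79220790-79221486, each with a ratio of 2.00. Just outside were chr11:79002838-79003665, with 14.1 and 13.2 against 3.97 and 6.60, chr14:22807557-22808191, and chr11:122362206-122362738, also with ratios of 2.00 after rounding. At the first region on each side the untreated replicates differed more than the asparaginase replicates did.

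The strengthened regions shared features that the rule did not use, given here as a description. They were narrower than the other regions, with a median width of 710 bp against 895 bp. More than 1 peak in any list was found at 25 of them (4.92%), against 20.6% of the other regions. The summits of all 4 lists lay within 100 bp of each other at 358 strengthened regions, 70.5% (95% Wilson interval 66.4 to 74.3), against 37.5% (36.9 to 38.1) of the other regions, and the median distance between the outermost summits was 71 bp against 135 bp. Summits in close register were thus more frequent at the strengthened regions. The peaks there were also stronger with asparaginase (medians of 11.4 and 11.7 against 5.84 and 6.03), and the part of this in the difference was not tested.

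Without the drug most strengthened regions were modest peaks. A −log10 q of at least 10 in both untreated lists was reached by 91 of them (17.9%), against 54.6% of the other regions. In both asparaginase lists that value was reached by all 508, against 64.8% of the other regions. At 139 strengthened regions (27.4%) the local background in both untreated lists was no higher than the genome background, which was the case at 3.72% of the other regions. With asparaginase this held for 1 of the 508. The q and the local background are tied to the enrichments that chose the regions, so these differences follow in part from the rule.

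The regions were spread over the genome. Another region with a peak in all 4 lists lay within 10 kb of 133 of them (26.2%), against 34.9% for the other regions, and the median distance to the next strengthened region was 2001350 bp. As strengthened regions make up 2.01% of the 25213, few such neighbours of this kind follow from their number alone, and their spacing was not tested. Another strengthened region lay within 10 kb of 4 of the 508 (0.787%). They form a pair at chr11:13082552-13083579 and from 13089014 to 13089746, and a pair at chr14:86762291-86763291 and from 86771273 to 86772043. The share of regions that were strengthened was highest on chromosome X, 20 of 516 or 3.88% (95% Wilson interval 2.52 to 5.91), followed by 3.46% (2.63 to 4.53) on chromosome 3 and 3.27% (2.40 to 4.43) on chromosome 5. It was lowest on chromosome 19, 10 of 1372 or 0.729% (0.396 to 1.34), apart from chromosome Y with 0 of 34 regions.

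SUPB15, the second leukaemia line, had no part in the choice of the regions. A SUPB15 peak was listed at 387 of the 508 strengthened regions (76.2%) in at least 1 library. Both asparaginase lists of SUPB15 held a peak at 336, or 66.1% (95% Wilson interval 61.9 to 70.1), against 40.3% (39.7 to 40.9) of the other regions and 40.8% of all 25213. A peak in both asparaginase lists and in neither untreated list, which means gained in SUPB15, was found at 144 strengthened regions, 28.3% (24.6 to 32.4), against 15.1% (14.6 to 15.5) of the other regions and 15.4% of all. Peaks in all 4 SUPB15 lists were found at 113 regions, or 22.2%, and in no list at 121, or 23.8%, against 37.8% of the other regions. These intervals cover counting error over regions, which are not replicates, and no test was made over them.

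The remaining strengthened regions fell into smaller classes. Both asparaginase lists and exactly 1 untreated list held a peak at 79 (15.6%, against 10.3% of the other regions). Asparaginase replicate 1 alone listed 30 (5.91%, against 16.1%) and replicate 2 alone listed 6 (1.18%, against 1.75%). Only untreated lists held a peak at 11 (2.17%, against 0.680%), and 4 showed other patterns (0.787%, against 3.32%). The untreated lists of SUPB15 were of nearly equal length but unequal at these regions: replicate 1 listed 192 of the 508 (37.8%) and replicate 2 listed 132 (26.0%), against 23.7% and 21.1% of the other regions. Replicate 1 was the only untreated list with a peak at 64 regions of both asparaginase lists, and replicate 2 at 15. Without untreated replicate 1, 208 of the 508 regions (40.9%) counted as gained in SUPB15, against 21.3% of the other regions. Without asparaginase replicate 2, where the long list of replicate 1 alone decides, the share was 34.3% against 31.2%.

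**Figure D3:**
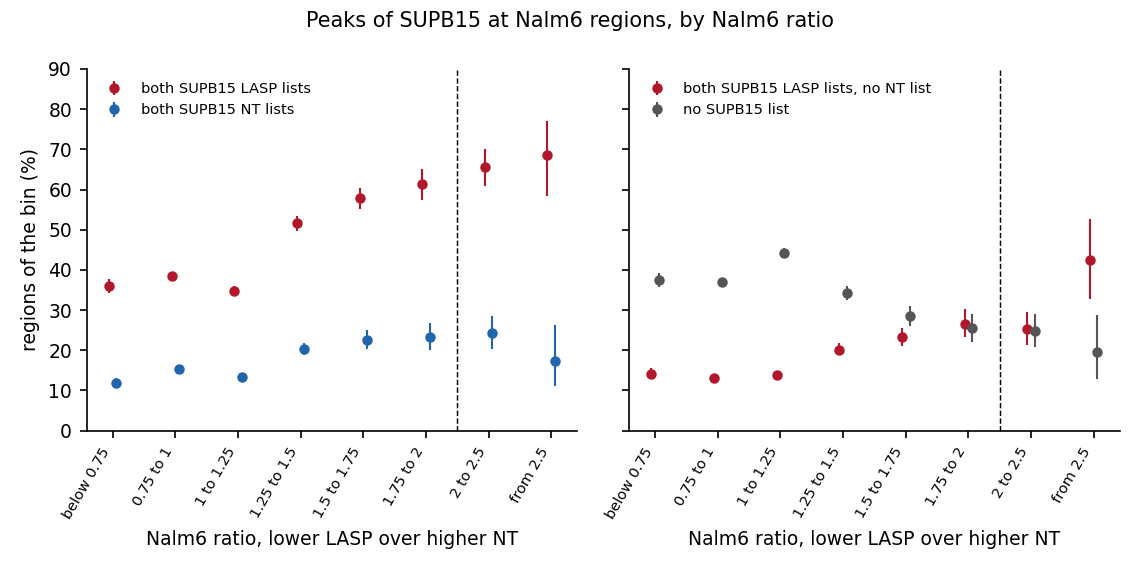
Share of Nalm6 regions with a peak in SUPB15, by the Nalm6 ratio of the lower asparaginase to the higher untreated fold enrichment; points are percentages of the regions in a bin, bars are 95% Wilson intervals, and the dashed line marks the ratio of 2 that defines the strengthened regions. The share in both SUPB15 asparaginase lists was 34.8% at ratios of 1 to 1.25 and 68.5% from 2.5 upwards. The share gained in SUPB15 was 13.9% and 42.4% in these bins, and 26.7% and 25.2% just left and right of the dashed line.

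The share in both SUPB15 asparaginase lists was larger at higher Nalm6 ratios from 1 upwards, on both sides of the threshold, and was 38.6% at ratios of 0.75 to 1. Both SUPB15 asparaginase lists held a peak at 34.8% of the regions with ratios of 1 to 1.25, 51.6% at 1.25 to 1.5, 57.8% at 1.5 to 1.75, 61.4% at 1.75 to 2, 65.6% at 2 to 2.5 and 68.5% from 2.5. Regions just under the threshold were thus close to those just above it. The share gained in SUPB15 was 23.2% at ratios of 1.5 to 1.75, 26.7% at 1.75 to 2 and 25.2% at 2 to 2.5. At the 92 regions from 2.5 it was 42.4% (32.8 to 52.6). Peak strength in Nalm6 moved along with the ratio: the median of the lower asparaginase enrichment was 5.54 at ratios of 1 to 1.25 and 11.8 from 2.5.

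Set beside regions of like strength with asparaginase, the strengthened regions were not listed more often in the SUPB15 asparaginase libraries from an enrichment of 8 upwards. Where the lower Nalm6 asparaginase enrichment was from 8 to 10, both lists held a peak at 57.2% of 145 strengthened regions and 65.6% of 2080 others. From 10 to 12 the shares were 64.3% of 154 and 75.5% of 1037, and from 12 upwards 75.4% of 179 and 85.0% of 1420. The bin from 12 has no upper end, so strengths within it may differ. The untreated SUPB15 lists showed a wider gap. Both held a peak at 15.9%, 20.1% and 31.8% of the strengthened regions in these bins, against 32.2%, 45.3% and 59.8% of the others. Gained regions were accordingly more frequent among the strengthened ones, with 28.3%, 30.5% and 25.7% against 18.7%, 17.4% and 14.5%. Below an enrichment of 8 there were only 30 strengthened regions, of which 63.3% (95% Wilson interval 45.5 to 78.1) had a peak in both asparaginase lists, against 32.7% of the others, and 10 were gained in SUPB15.

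**Figure D4:**
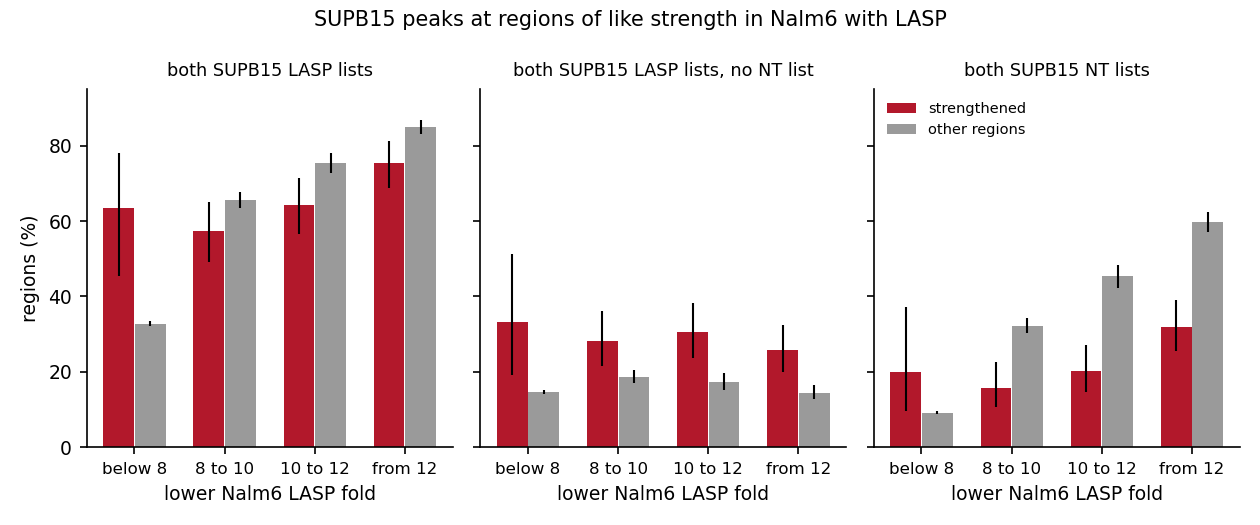
Percentage of regions with a peak in both SUPB15 asparaginase lists (left), in both of these and no untreated list (middle) and in both untreated lists (right), for strengthened regions (red) and other regions with a peak in all 4 Nalm6 lists (grey), by the lower Nalm6 asparaginase fold enrichment; error bars are 95% Wilson intervals. From an enrichment of 8 upwards the strengthened regions are lower on the left, higher in the middle and lower on the right, for example 31.8% against 59.8% in the untreated lists from 12 upwards.

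Set beside regions of like strength without the drug, the strengthened regions were the ones listed more often. Where the higher untreated Nalm6 enrichment was below 4, both SUPB15 asparaginase lists held a peak at 60.4% of 91 strengthened regions and 17.3% of 3307 others, and both untreated lists at 17.6% and 2.51%. From 6 upwards the asparaginase shares were 72.0% of 93 and 60.6% of 10676. The strengthened regions were listed more often in the SUPB15 asparaginase libraries in each bin. Both untreated lists held a peak at 16.3% against 3.92% from 4 to 5, and at 31.3% against 8.38% from 5 to 6. From 6 upwards these shares were 30.1% and 29.2%. That bin has no upper end and does not compare like strengths, since the untreated enrichment reached 8.69 at the strengthened regions and 25.3 at the others.

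Where SUPB15 had a peak, it lay at nearly the same place. Among regions in both SUPB15 asparaginase lists, both summits were within 100 bp of the Nalm6 summit at 288 of 336 strengthened regions, 85.7% (95% Wilson interval 81.6 to 89.1), against 46.8% (45.9 to 47.8) of the other regions. The median distance was 28 bp in each asparaginase library and 28.5 bp and 25 bp in the untreated ones, against 58 to 85 bp for the other regions. Fold enrichment where listed had a median of 7.54 and 6.73 with asparaginase and 4.86 and 4.89 without. At the other regions the medians were 3.85 and 3.88 with asparaginase and 3.85 and 3.83 without. The part of peak strength and of region width (median 710 bp against 895 bp) in the summit distances was not tested.

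The change within SUPB15 could be tested only at regions with a peak in all 4 of its lists, 4765 in the whole table and 113 at strengthened Nalm6 regions. These 113 passed a filter that strong regions pass more easily, so they do not stand for the 508. Their fold enrichment had a median of 11.5 and 10.9 with asparaginase and 5.51 and 5.10 without, and the summit pileup over genome background a median of 31.5 and 23.2 with asparaginase and 9.80 and 8.46 without. Both asparaginase values were above both untreated values in 105 of the 113 (92.9%) by fold enrichment, against 62.8% of all 3800 such Nalm6 regions. Both were below in 1, against 4.34%. The rule used in Nalm6, a lower asparaginase value of at least 2 times the higher untreated one, was met in SUPB15 by 28 of the 113 (24.8%), against 5.87% of the 3800.

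The summit pileups over genome background of SUPB15 were compared with limma over all 4765 regions, with changes given as log2 of asparaginase over untreated, relative to the median change of all regions, which was itself 0.62 (1.54-fold). At an adjusted p below 0.05 (Benjamini-Hochberg over the 4765), 53 of the 113 were higher with asparaginase (46.9%) and 0 were lower. Over all 4765 regions 20.5% were called higher and 5.96% lower. At an unadjusted p below 0.05 the counts were 68 and 0 of the 113, against 1408 and 616 of the 4765. Without centring 103 of the 113 were called higher and 0 lower, against 49.0% and 0.0839% of all regions. The median log2 change was 0.81 at the 113 regions, with values from −0.57 to 1.69, and −0.07 at the 3640 fitted regions that overlap only other Nalm6 regions with a peak in all 4 lists. The change was positive at 105 of the 113, against 1696 of these 3640. It was positive at 2383 of all 4765, which follows from centring on their median.

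The number called in SUPB15 depended on the libraries and on the regions fitted. It was 28 without asparaginase replicate 1, where 8.23% of all regions were called higher. No strengthened region was called higher without untreated replicate 1, or without untreated replicate 2, and hardly any of all regions were. In these fits the lone sample of a group is taken to vary like the others. The median change of the 113 was between 0.70 and 0.82 without single libraries. Among the 2382 regions above the median strength, the median change of all regions was 1.27 instead of 0.62. Relative to that shift 7 of 86 regions were called higher and 3 lower, with a median of 0.24, against 1.43% of the 2382 called higher and 24.1% called lower. Chromosome 8 from 60 Mb and chromosome 1 from 180 Mb together held 17.45% and 19.98% of the SUPB15 peaks with asparaginase and 13.0% and 20.8% without, against 4.91% and 4.91% of the Nalm6 peaks with asparaginase and 4.74% and 4.71% without, and 27 of the 508 regions lie there. Without chromosomes 1 and 8, 32 of 95 were called higher, against 15.4% of all regions fitted.

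**Figure D5:**
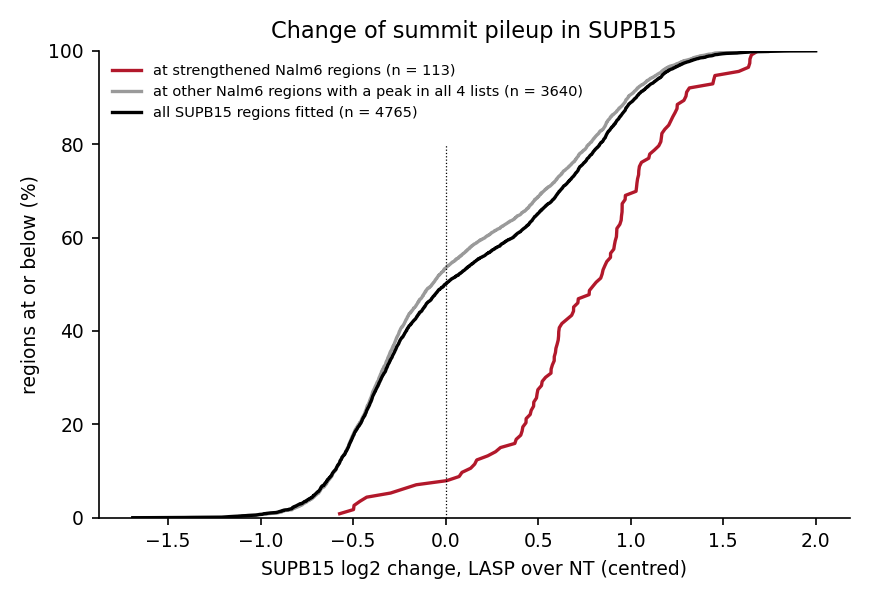
Cumulative distribution of the SUPB15 log2 change in summit pileup, asparaginase over untreated and centred on the median of all fitted regions, for 113 regions at strengthened Nalm6 regions (red), 3640 at other Nalm6 regions with a peak in all 4 lists (grey) and all 4765 fitted regions (black). The red curve lies to the right, with a median of 0.81 against −0.07 for the grey one.

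The smallest adjusted p in SUPB15 among the strengthened regions was found at chr5:81146187-81146910. SUPB15 enrichments there were 14.4 and 14.0 with asparaginase and 6.94 and 5.99 without, a log2 change of 1.45 ± 0.29 (SE; limma, adjusted p = 0.00023). Nalm6 enrichments at the same place were 8.56 and 9.02 with asparaginase and 2.79 and 3.19 without. At chr11:9632486-9633190, SUPB15 had 10.1 and 11.9 against 4.12 and 3.29 (log2 change 1.65 ± 0.35, limma, adjusted p = 0.000458), and Nalm6 had 10.8 and 10.1 against 3.55 and 3.60. In both regions the asparaginase libraries of SUPB15 were above the untreated ones, with no overlap. In Nalm6 the rule requires this order.

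The widest gap in fold enrichment among the 113 was at chr12:74794505-74795419, where SUPB15 had 19.1 and 19.6 with asparaginase and 5.51 and 5.72 without, a ratio of 3.34 and a log2 change in pileup of 1.44 ± 0.37 (limma, adjusted p = 0.00315). Nalm6 had 15.4 and 16.2 there with asparaginase against 7.23 and 7.03. The other 7 regions with the smallest adjusted p had log2 changes of 1.15 to 1.69 and adjusted p of 0.000524 to 0.00381 by limma. They were at chr11:124786762-124787532, chr8:1842876-1843669, chr6:34868958-34869653, chr21:15754632-15756215, chr2:208365124-208365632, chr13:44103062-44103603 and chr17:9415488-9416125. All 10 were higher with asparaginase in both SUPB15 libraries, where they were picked by adjusted p. In Nalm6 the rule requires this order.

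The leading Nalm6 regions showed several patterns in SUPB15. Of the 10 with the highest Nalm6 ratios, 3 had a peak in all 4 SUPB15 lists. The region on chromosome 1 from 244387694 had SUPB15 enrichments of 12.8 and 12.7 with asparaginase and 7.97 and 6.52 without, and its log2 change of 0.68 ± 0.30 did not pass the threshold (limma, adjusted p = 0.0684). It lies on chromosome 1 beyond 180 Mb. That segment held 6.44% and 6.81% of the SUPB15 peaks with asparaginase and 4.76% and 6.79% without, against 2.59% to 2.62% of the Nalm6 peaks. The regions on chromosome 22 and on chromosome 12 from 50226514 were called higher, with changes of 1.17 ± 0.37 and 0.94 ± 0.37 (limma, adjusted p = 0.0138 and 0.0428). A further 4 of the 10 were gained in SUPB15, on chromosome 3, chromosome 19, chromosome 12 from 132345181 and chromosome 17 from 75467330, with enrichments of 3.54 to 8.16 in the asparaginase lists. The region on chromosome 17 from 60900681 was listed in asparaginase replicate 1 alone (4.85), the one on chromosome 10 was listed in the untreated libraries alone, and the one of highest ratio, on chromosome X, had no SUPB15 peak.

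Gained regions of SUPB15 at strengthened Nalm6 regions had a median lower enrichment of 4.81, against 3.33 where other Nalm6 regions were gained. The strongest was at chr7:87833926-87834623, with 10.8 and 10.4 in SUPB15 with asparaginase, no untreated SUPB15 peak, and Nalm6 values of 10.2 and 12.1 with asparaginase against 4.42 and 3.71. The next were at chr4:169332594-169333330, chr14:63953371-63953931, chr5:79265372-79266098 and chr6:26497589-26498385, with SUPB15 enrichments of 8.54 to 13.3. At all 5, ATF4 peaks were listed in both lines with the drug but only in Nalm6 without it.

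Strong Nalm6 regions were also among the 121 without any SUPB15 peak. The strongest of these were the regions on chromosome 17 from 62038577, chromosome 1 from 106564824 and chromosome 3 from 156943831, given above, together with the region on chromosome X of highest ratio and one at chrX:8723127-8723714 (17.0 and 16.1 with asparaginase against 3.78 and 6.86). Their summits held 59 to 207 fragments in the asparaginase libraries of Nalm6.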

How the data were processed

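Peak lists of 8 ATF4 immunoprecipitations were used, 1 per library. Per the submitters' processing notes, BWA, MACS2, DiffBind and the hg19 build were used; no version, option or role is stated for them. The deposited lists give, for each peak, the authors' fold enrichment over local background (a ratio), a −log10 p and a −log10 q. Each library has its own list.

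In MACS2 the fold is (pileup + 1) / (background + 1) and the p is that of a Poisson tail, so summit pileup (a whole number) and local background were obtained from them, with a tolerance of 0.001 in −log10 p, which succeeded for 100% of peaks. The lowest background found in a list served as genome background and relative depth. Higher backgrounds were all multiples of 0.02 (tolerance 0.0005), as would result if the immunoprecipitated library served as its own background. No source used here states a control library. A local background of this kind includes the peak itself. Totals of reads are unknown.

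SUPB15 peaks were matched by 1 bp of overlap. The SUPB15 fit used limma 3.58.1 (R 4.3.3) with a trend on log2 of (pileup + 1) over genome background, centred on the median change. For a single region, an exact permutation test of 2 against 2 libraries cannot go below p = 0.333 and was not used. Regions, the rule and the fit were tested on simulated data. The simulated data of the fit held no change shared by all regions, so the centring was not tested by them. Regions named were the 10 of highest ratio, the 10 of highest lower asparaginase enrichment, the 3 on each side of the threshold, the 10 of smallest adjusted p in SUPB15, the 5 strongest gained in SUPB15 and the 5 strongest without a SUPB15 peak. The regions, tests and rules were chosen with earlier results of these data known. The planned shares near transcription start sites, motif counts and gene names were not computed, since no genome or annotation of hg19 was used here.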

Additional observations from a re-analysis of the deposited data

Results flagged for a closer look

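At 3 strengthened Nalm6 regions both untreated SUPB15 lists had higher values than both asparaginase lists, or alone held a peak. A further 9 held a SUPB15 peak in untreated replicate 1 alone. The difference between the lines was not tested. At chr8:62440923-62441715, all 4 SUPB15 lists held a peak and both asparaginase values were lower, 7.87 and 7.61 against 8.24 and 8.46, so that the higher asparaginase enrichment was 0.954 times the lower untreated one. Nalm6 had 12.1 and 12.5 there with asparaginase against 3.85 and 5.61. The SUPB15 log2 change in pileup was −0.49 ± 0.35 (SE; limma, adjusted p = 0.252), which did not pass the threshold, and it was 0.12 without centring. The region lies on chromosome 8 beyond 60 Mb, where 11.01% and 13.17% of the SUPB15 peaks with asparaginase and 8.27% and 14.0% of those without were found. At 2 regions of chromosome 10, SUPB15 peaks were listed in both untreated libraries and in neither asparaginase library, where no level was measured. At chr10:4449804-4450529, which has a Nalm6 ratio of 3.23, SUPB15 enrichments without treatment were 5.00 and 4.13. At chr10:109040052-109040454 they were 3.74 and 4.29, beside Nalm6 enrichments of 8.14 and 8.46 with asparaginase and 4.02 and 3.88 without. Among the other 24705 Nalm6 regions, 5 showed this pattern of lists.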

How the results depend on the processing

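The number of strengthened regions followed the definition. It was 2390 with a ratio of 1.5, 13 with a ratio of 3, 3604 by pileup over genome background, 190 after division of each list by its median enrichment, 91 with peaks of −log10 q of at least 10, and 647 to 1266 without single libraries. The mirrored rule gave 0 regions by pileup, 5 after division by the median and 0 to 4 without single libraries. The share gained in SUPB15 was 32.9% (6.93% of other regions) with SUPB15 peaks of −log10 q of at least 10, 16.5% (2.62%) with equally long lists, 22.1% (14.2%) with regions chosen by pileup, and 29.5% to 40.9% without single libraries. The share in both asparaginase lists was 52.2% (14.1%), 52.8% (14.9%) and 69.6% (36.0%) under the same settings, and 66.1% to 72.0% without single libraries. In the SUPB15 fit, 103 regions were called higher without centring (49.0% of all regions), 7 above the median strength (1.43%), 32 without chromosomes 1 and 8 (15.4%; chosen after the data had been seen) and 0 to 50 without single libraries (0% to 22.3%). The median log2 change was 1.43 without centring, 0.56 by fold enrichment, 0.24 above the median strength and 0.70 to 0.82 without single libraries. Same-numbered samples showed correlated deviations of only 0.03 in Nalm6 and 0.09 in SUPB15, so the replicate numbers are not taken as pairs. With a replicate block there were 649 strengthened regions and 0 by the mirrored rule, 78 called higher in SUPB15 (34.3% of all regions, with 14.8% lower) and a median of 0.81. No paired analysis was possible for shares of listed peaks because they come from no test. Among the regions named, the SUPB15 change of chr8:62440923-62441715 reversed to 0.12 without centring, by the size of the shift removed. Of the other SUPB15 changes recomputed for named regions, 132 kept their direction and side of the threshold, 44 lost significance and 7 gained it. Where shares and counts moved, the cause was not tested beyond what fewer libraries or shorter lists do by construction. A peak missing from a list is no measured level, in any of the lists.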
